A study of Homo sapiens with 6 samples.

Results

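The NEK kinases (never in mitosis A-related kinases) are a family of serine/threonine kinases of the centrosome, the mitotic spindle and the primary cilium. The genes described here are NEK2, NEK3, NEK4, NEK6, NEK7, NEK8, NEK9, NEK10 and NEK11, 9 of the 14884 genes that the array annotation named. They were chosen by family name, and the only measured value in their selection was the mean over the 6 arrays, by which the probe set with the highest mean stood for each gene. Each NEK gene had 1 named probe set, so this step set nothing. The family was picked with results of the same comparison known, so its counts are a description and not independent support for a direction. NEK5 also had a named probe set and was not among the 9, and its values are given for completeness. NEK1 is not analysed here.

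The cells were HK2, an established human kidney line of proximal tubule epithelium. In 1 group they were transduced with pLKO.1 lentivirus that carried an shRNA against PGC-1alpha, the coactivator encoded by PPARGC1A and known for its part in mitochondrial biogenesis. The control cells were HK2 transduced with the same vector carrying an shRNA against GFP, a jellyfish protein that human cells do not make. Both groups underwent puromycin selection, and their RNA was taken on day 5 after transduction, 24 hours after puromycin was withdrawn. Each group held 3 arrays, called biological replicates in the labels. The labels name 1 shRNA against PGC-1alpha, so loss of its target and other effects of that shRNA cannot be told apart. The level of PPARGC1A was not analysed here.

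NIMA, the founding kinase of the family, was found in the mould Aspergillus nidulans, where it is needed for entry into mitosis. In human cells NEK2 loosens the linker between the centrosomes, and NEK9 activates NEK6 and NEK7, which act on spindle assembly. NEK8 sits in the inversin compartment of the cilium, and mutations in it cause nephronophthisis, a cystic kidney disease. NEK10 and NEK11 take part in the checkpoint that holds damaged cells before mitosis.

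NEK gene transcripts were mostly lower in cells with the shRNA against PGC-1alpha. NEK9 fell most, to a level 1.65-fold below the control, and NEK3, NEK11, NEK6 and NEK10 fell by smaller amounts. NEK2, NEK4, NEK7 and NEK8 did not pass the threshold. In limma, fitted over all 14884 genes with Benjamini-Hochberg adjustment and a threshold of 0.05, 5 of the 9 kinases fell and 0 rose. Over all genes 21.8% passed, 12.2% lower and 9.58% higher. The median log2 difference, shPGC-1alpha minus shGFP, was -0.26 over the 9 kinases and -0.02 over all genes. For 7 of the 9 kinases every shPGC-1alpha array lay below every shGFP array. Groups were apart in this way for 21.5% of all genes, and in either direction for 38.7%. RNA came from whole cultures, in which fewer cells of a kind and less RNA per cell cannot be told apart.

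The count of 5 depended on single arrays. It was 3 without shPGC-1alpha replicate 1, 2 without shPGC-1alpha replicate 2 and 2 without shGFP replicate 2 or shGFP replicate 3. It was 4 without shGFP replicate 1, which stood apart from the other arrays of its group on the second principal component. The count over all genes was 3243 with all arrays and 2328 to 2578 with 1 left out. NEK9 and NEK11 kept their calls whichever array was left out. With arrays centred on their median 3 of the 9 passed, all of them lower. Over all genes 3307 passed with that centring, 1440 lower and 1867 higher, against 1817 and 1426 in the main fit. With the model fitted and p-values adjusted over all 53617 probe sets NEK9 alone of the 9 passed, and 1737 of all named genes. The plot of adjusted p by setting shows this order.

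**Figure D1:**
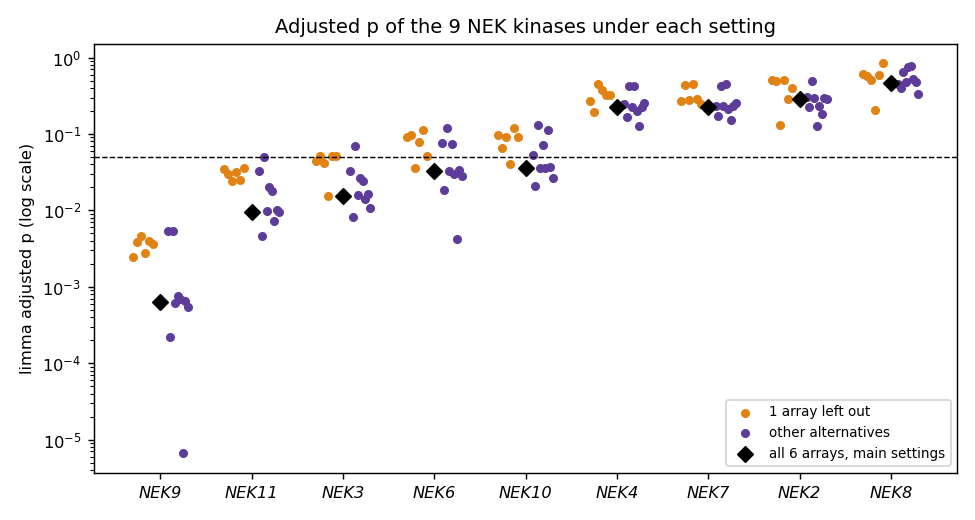
Limma adjusted p of each NEK kinase on a log axis, with all 6 arrays and main settings as a black diamond, with 1 array left out in orange and under the other alternatives in purple. All points of NEK9 lie below the dashed line at 0.05, and those of NEK11 do except 1 at 0.051. The points of NEK3, NEK6 and NEK10 fall on both sides of the line.

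Across the study the 6 arrays had medians between 5.00 and 5.04 on the log2 scale of robust multi-array average (RMA) values. Over the whole table, Pearson's r was 0.988 to 0.992 within groups and 0.982 to 0.987 between them. On the second principal component, with 19.6% of the variance, shGFP replicate 1 lay at 42.6 and the other control arrays at -19.7 and -26.9. Of 17 proximal tubule markers 8 were measured. The peptidases DPP4 and MME and the kidney transcription factor PAX8 averaged 10.53, 7.46 and 11.63 over the 6 arrays. The endocytic receptors LRP2 and CUBN lay at 3.97 and 3.92. Both are under 4.43, a level that 20% of named genes do not reach and that serves as a guide to dim probe sets. Of the 8 tubule markers PAX8 rose by 0.38, and MME, CLTRN and DPP4 fell by 0.61, 0.50 and 0.27. CLTRN averaged 3.51, which is also under 4.43. Epithelial identity genes also moved with the groups: of 7 measured, CLDN1 rose by 1.33 and 5 fell, among them KRT19 by 1.42, EPCAM by 0.73 and TJP1 by 0.47. Their summed log2 level was 58.5 to 59.3 in shPGC-1alpha arrays and 60.8 to 61.3 in shGFP arrays. Of 6 measured markers of other cells, the matrix proteoglycan DCN rose by 0.83 and the lysosomal CD68 by 0.34. DCN averaged 4.21, so its rise was among dim values under 4.43. The summed log2 level of the 6 markers was 34.9 to 35.3 in shPGC-1alpha arrays and 33.7 to 34.6 in shGFP arrays. PECAM1 and VWF, which mark endothelium, averaged 3.60 and 4.76, and RMA values have no 0 that would mark absence. The part of these marker changes in the NEK results was not tested.

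The NEK9 cascade held both the largest change and kinases that did not pass. NEK9 is the upstream kinase, which Polo-like kinase switches on in early mitosis. It had log2 values of 7.11, 6.99 and 7.03 in the shPGC-1alpha arrays, against 7.71, 7.73 and 7.86 in the shGFP arrays. The highest shPGC-1alpha value lay well below the lowest shGFP value. Its mean was 7.04 ± 0.06 with the shRNA against PGC-1alpha and 7.77 ± 0.08 in the control (SD, n = 3 each), a log2 difference of -0.72 (SE 0.07, limma adjusted p 0.00062). Over the 15 alternatives the difference stayed between -0.76 and -0.67 and the adjusted p between 6.6e-06 and 0.0054.

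NEK6, which NEK9 activates and which phosphorylates the spindle motor KIF11, had 8.15, 8.13 and 8.27 in the shPGC-1alpha arrays and 8.47, 8.53 and 8.39 in the shGFP arrays. Its groups did not overlap, and replicate 3 of each group came nearest to the other group. The difference was -0.28 (SE 0.07, limma adjusted p 0.032). With any array but shPGC-1alpha replicate 3 left out the call was lost, at adjusted p of 0.051 to 0.11.

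NEK7, the close relative of NEK6 that also binds the inflammasome sensor NLRP3, had 7.67, 7.57 and 7.66 in the shPGC-1alpha arrays and 7.87, 7.74 and 7.72 in the shGFP arrays. The groups stood just apart, and the difference of -0.14 (SE 0.07, 95% interval -0.31 to 0.03) did not pass (limma adjusted p 0.23). Whether NEK6 and NEK7 differed in their response was tested within each array. The difference of their log2 differences, NEK6 minus NEK7, was -0.14 (SE 0.07), with a two-sided exact permutation p of 0.2 (n = 3 each). The same test for NEK8 minus NEK9, another pair of near relatives, gave 0.63 (SE 0.05) with arrays that did not overlap and p = 0.1, the smallest that an exact permutation test of 3 against 3 can give. Both were 0.2 after adjustment over the 2 pairs, and with 3 arrays a group this test cannot reach 0.05 whatever the difference.

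**Figure D2:**
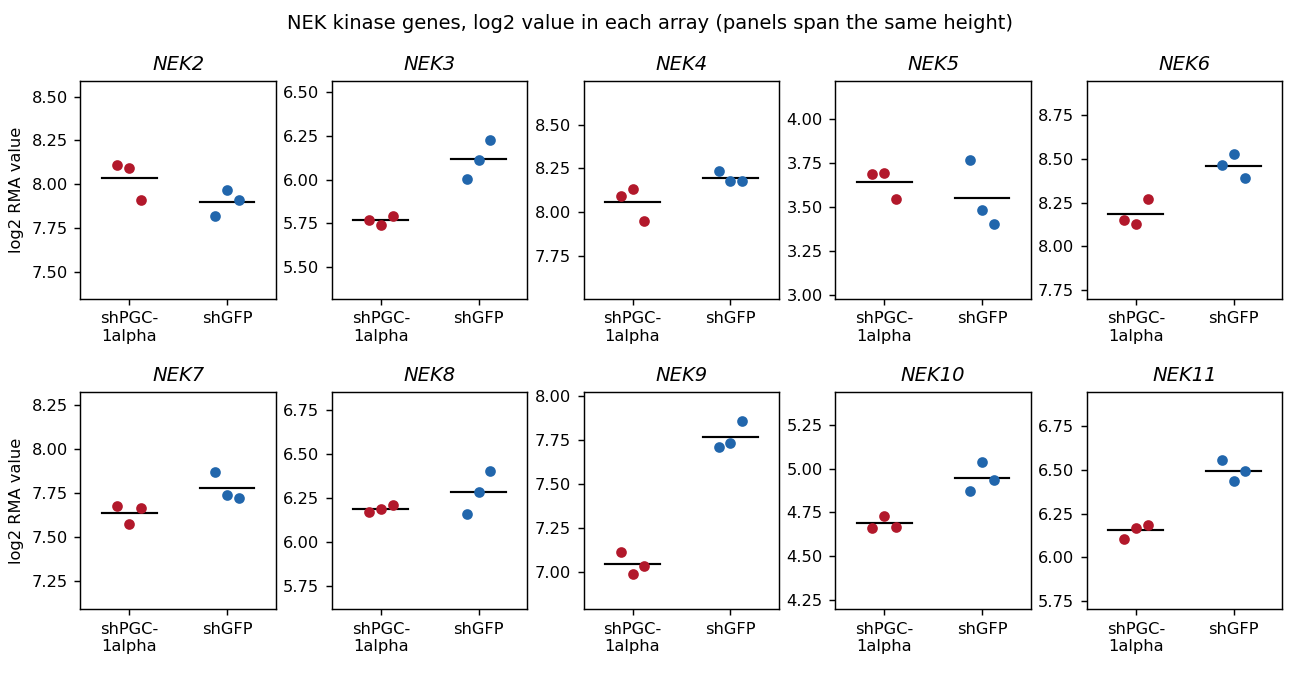
Log2 RMA value of each NEK gene in each array, shPGC-1alpha in red left of shGFP in blue, with the group mean as a line. Every panel spans the same height, and the gap between groups is widest for NEK9, at 7.04 against 7.77.

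NEK2, the centrosomal kinase of the family, was the 1 member with a positive difference. It had 8.11, 8.09 and 7.91 in the shPGC-1alpha arrays and 7.82, 7.97 and 7.91 in the shGFP arrays. The groups overlapped through shPGC-1alpha replicate 3. The difference of 0.14 (SE 0.08, 95% interval -0.05 to 0.33) did not pass (limma adjusted p 0.29). RefSeq lists 4 pseudogenes of NEK2 and 3 of NEK4, whose transcripts could share probes with them, so the values of NEK2 and NEK4 are uncertain. Among the called kinases, the spans of NEK3, NEK6, NEK9 and NEK10 each overlap 2 other annotated genes and that of NEK11 overlaps 3. Whether transcripts of those genes reach the probes was not tested.

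Promoter sequence is shown for NEK9, which fell most, and for NEK2, the member with the positive difference. Each run is the 250 bases before the annotated start in RefSeq's GRCh38.p14, read 5′ to 3′ on the gene's strand, and both genes lie on the minus strand. The NEK9 run lies at chr14:75127049-75127298 and the NEK2 run at chr1:211675622-211675871. Capitals mark matches on either strand to 3 motifs known from promoters of mitotic or ciliary genes: TTTGAA (the CHR element), CCAAT (the CCAAT box) and GTTGCC (an arm of the X-box bound by RFX factors).
NEK9: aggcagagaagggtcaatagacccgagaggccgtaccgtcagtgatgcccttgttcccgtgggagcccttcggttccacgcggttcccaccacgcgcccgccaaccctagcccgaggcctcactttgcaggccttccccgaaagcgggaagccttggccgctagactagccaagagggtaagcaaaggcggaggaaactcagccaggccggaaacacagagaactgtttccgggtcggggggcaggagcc
NEK2: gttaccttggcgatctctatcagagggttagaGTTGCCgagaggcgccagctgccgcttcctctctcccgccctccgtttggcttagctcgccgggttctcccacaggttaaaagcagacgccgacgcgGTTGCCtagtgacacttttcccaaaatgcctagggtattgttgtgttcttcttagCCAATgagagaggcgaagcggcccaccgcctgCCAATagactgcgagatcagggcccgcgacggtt
The NEK2 run held CCAAT 2 times and GTTGCC 2 times, and no match overlapped another. The NEK9 run held none of these letters, nor did the runs of NEK3, NEK4, NEK8 and NEK11. Among the other kinases that fell, the NEK10 run held CCAAT 3 times and the NEK6 run 2 times. A link between motifs and direction was not tested. Of 35116 promoter entries of the same length, 32.0% held CCAAT, 10.2% GTTGCC and 13.3% TTTGAA. Of the 9 kinases, 8 had a promoter entry. NEK3, NEK10 and NEK11 had 2 entries each and NEK6 had 5. Only the first entry of each gene was read, so the motif counts of these kinases cover that entry alone.

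The checkpoint kinases NEK11 and NEK10 were both lower. NEK11, which marks the phosphatase CDC25A for destruction after DNA damage, had 6.11, 6.17 and 6.19 in the shPGC-1alpha arrays and 6.55, 6.44 and 6.49 in the shGFP arrays. The groups were apart, with every shPGC-1alpha value below every control. The difference was -0.34 (SE 0.07, limma adjusted p 0.0095), and the call was lost only where the model was fitted and adjusted over all 53617 probe sets (adjusted p 0.051). NEK10, which acts in the same checkpoint and in airway cilia, had 4.66, 4.73 and 4.67 in the shPGC-1alpha arrays and 4.87, 5.03 and 4.94 in the shGFP arrays. Of the named genes 26.1% had a lower mean, and its groups did not overlap. The difference was -0.26 (SE 0.07, limma adjusted p 0.036). Leaving out any array but shGFP replicate 1 ended the call, at adjusted p of 0.065 to 0.12.

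NEK3 and NEK4 are less tied to mitosis. NEK3, which takes part in prolactin receptor signalling and cell movement in breast cells, had 5.77, 5.74 and 5.79 in the shPGC-1alpha arrays and 6.01, 6.11 and 6.23 in the shGFP arrays. The treated arrays lay close together and below all controls. The difference was -0.35 (SE 0.08, limma adjusted p 0.016). It missed the threshold by little without shPGC-1alpha replicate 2, shGFP replicate 2 or shGFP replicate 3, at adjusted p 0.052 in each case. NEK4, which binds ciliary proteins and acts in the DNA damage response, had 8.09, 8.13 and 7.95 in the shPGC-1alpha arrays and 8.24, 8.18 and 8.18 in the shGFP arrays. The groups stood apart by a narrow margin, and the difference of -0.14 (SE 0.07, 95% interval -0.31 to 0.03) did not pass (limma adjusted p 0.22).

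NEK8, the kinase linked to nephronophthisis, had 6.17, 6.18 and 6.21 in the shPGC-1alpha arrays and 6.16, 6.28 and 6.41 in the shGFP arrays. The groups overlapped because shGFP replicate 1 was the lowest of the 6. The difference was -0.09 (SE 0.08, 95% interval -0.28 to 0.09, limma adjusted p 0.47). NEK5, outside the 9, had 3.69, 3.69 and 3.55 in the shPGC-1alpha arrays and 3.77, 3.48 and 3.40 in the shGFP arrays. Its level lay below 4.43 in every array, and its difference was 0.09 (SE 0.11, limma adjusted p 0.61).

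**Figure D3:**
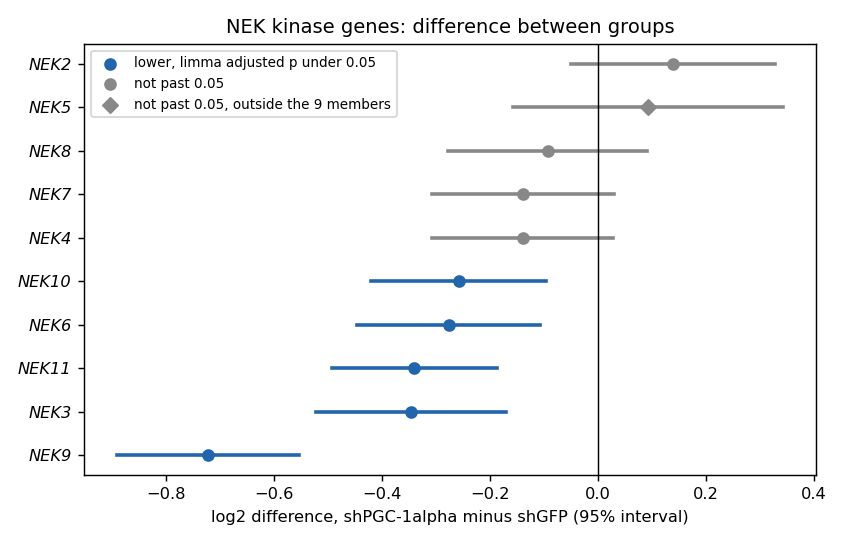
Log2 difference of each NEK gene, shPGC-1alpha minus shGFP, with its 95% interval from limma. The 5 genes past the threshold are in blue with NEK9 at -0.72 lowest, and the intervals of NEK2, NEK4, NEK5, NEK7 and NEK8 cross 0.

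Each member that passed was set against 10284 protein-coding genes with means above 4.43, by Pearson's r over the same 6 arrays. These r values describe 6 points that share the group difference, and 119 to 822 genes reached r over 0.95 with any of the 5 kinases. NEK9 was most like CALCOCO1, a calcium-binding coiled-coil coactivator, FOLR1, a folate receptor, and UCHL1, a deubiquitinating enzyme, all at r = 0.998. They differed in size: CALCOCO1 fell by 0.60 and FOLR1 by 1.00, and UCHL1 was at -0.11 without passing. NEK11 was most like DPYSL2, CYTL1 and BTBD10 (r = 0.999, 0.998 and 0.997), NEK3 like NOP2, POU4F1 and MLPH (0.996, 0.996 and 0.991), NEK6 like PHACTR4, ECHDC2 and ARL14EP (0.995, 0.994 and 0.992) and NEK10 like FN3KRP, RESF1 and HSDL2 (0.996, 0.994 and 0.993).

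Genes of the processes in which NEK kinases act were followed in 7 lists. Over all genes 12.2% were called lower and 9.58% higher. Of 27 listed centrosome and spindle partners 14 were measured. Of these 1 rose and 2 fell (14.3%), near the shares over all genes. CEP250, the linker protein C-Nap1 that NEK2 phosphorylates, had a mean of 7.15 ± 0.10 in shPGC-1alpha arrays and 7.79 ± 0.06 in shGFP arrays, a difference of -0.64 (SE 0.08, limma adjusted p 0.0013). BICD2, a dynein adaptor that binds NEK9, rose by 0.38 (SE 0.06, limma adjusted p 0.0051). SAV1, a scaffold of the Hippo pathway, fell by 0.34, a call that held only without shPGC-1alpha replicate 1 among the fits with an array left out. KIF11, the motor that NEK6 phosphorylates, was at -0.21 (limma adjusted p 0.056) and NDC80, a kinetochore protein that NEK2 phosphorylates, at 0.21 (0.25). NDC80 passed as a second higher gene without shPGC-1alpha replicate 3 (limma adjusted p 0.043). The median of the list was -0.05.

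Of 27 measured genes of mitotic entry and the spindle checkpoint, 8 rose and 2 fell, with a median of 0.06. The CDC25A transcript rose by 0.54 (SE 0.07, limma adjusted p 0.0018), with 8.03 ± 0.004 in shPGC-1alpha arrays and 7.48 ± 0.09 in shGFP arrays. NEK11 acts on the CDC25A protein, which the arrays do not measure, and a link between the 2 genes was not tested. LIN54, a DNA-binding subunit of the complex that controls mitotic genes, rose by 0.49. BUB3, a checkpoint protein, fell by 0.45, and the separase gene ESPL1 fell by 0.42. Of 19 DNA damage checkpoint genes, 3 rose, CDC25A among them, and 4 fell, with a median of -0.03. XRCC5 and XRCC6, the subunits of Ku that bind broken DNA ends, fell by 0.42 and 0.29. CLSPN, the claspin gene that helps activate CHEK1, fell by 0.45. CLSPN had 2 probe sets, of which the brighter was used, and its limma adjusted p reached 0.11 among the alternatives. The 7 calls of that list became 4 without shPGC-1alpha replicate 1, 2 or 3 or shGFP replicate 3, and its 3 higher genes became 1 without each of those arrays. CHEK1 was at -0.19 (limma adjusted p 0.11).

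Of 16 measured genes of the inversin compartment and nephronophthisis, 7 fell and 0 rose, with a median of -0.19. CEP290, which gates the ciliary base, fell by 0.80 (SE 0.08, limma adjusted p 0.00071), with 6.64 ± 0.12 in shPGC-1alpha arrays and 7.44 ± 0.07 in shGFP arrays. TTC21B and WDR19, subunits of the retrograde transport complex, fell by 0.73 and 0.60. TMEM67, of the transition zone, fell by 0.52. ANKS6, the direct partner and activator of NEK8, fell by 0.48 (SE 0.09, limma adjusted p 0.0070), while NEK8 itself did not pass. Of 37 genes of ciliary assembly and transport, 14 fell (37.8%) and 4 rose, with a median of -0.18. The transport gene IFT57 fell by 0.94. TTC8, a subunit of the BBSome, CCP110, a cap of the centriole, and the centriolar satellite gene OFD1 fell too, with differences of -0.87, -0.72 and -0.56. The 4 that rose were BBS7, KIF3B, ARL6 and TTBK2. They numbered 2 without shPGC-1alpha replicate 1, shPGC-1alpha replicate 3 or shGFP replicate 3 and 1 without shGFP replicate 2, and the 14 lower genes numbered 10 to 15.

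Of 18 listed inflammasome genes only 6 were measured, and NLRP3 was not among them. Of the measured genes 1 rose and 2 fell. Their median of -0.25 lies between AIM2 at -0.48 and GSDMD at -0.02, which did not pass, and AIM2 averaged 3.33, under 4.43. TXNIP, a thioredoxin-binding protein that can bind NLRP3, fell by 1.16, with 9.01 ± 0.09 in shPGC-1alpha arrays and 10.18 ± 0.08 in shGFP arrays. PYCARD, the adaptor ASC, fell by 0.80, and the channel gene PANX1 rose by 0.51 (limma adjusted p 0.00014, 0.00030 and 0.0020 for the 3 genes). Of 8 measured genes of the prolactin and cytoskeletal signalling in which NEK3 takes part, 0 rose and 2 fell. These were the exchange factors VAV3, at -2.04, which lay at 3.58 in shPGC-1alpha arrays and so below 4.43, and VAV2, at -0.48. The prolactin receptor gene PRLR averaged 3.45 and was at 0.07 without passing.

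**Figure D4:**
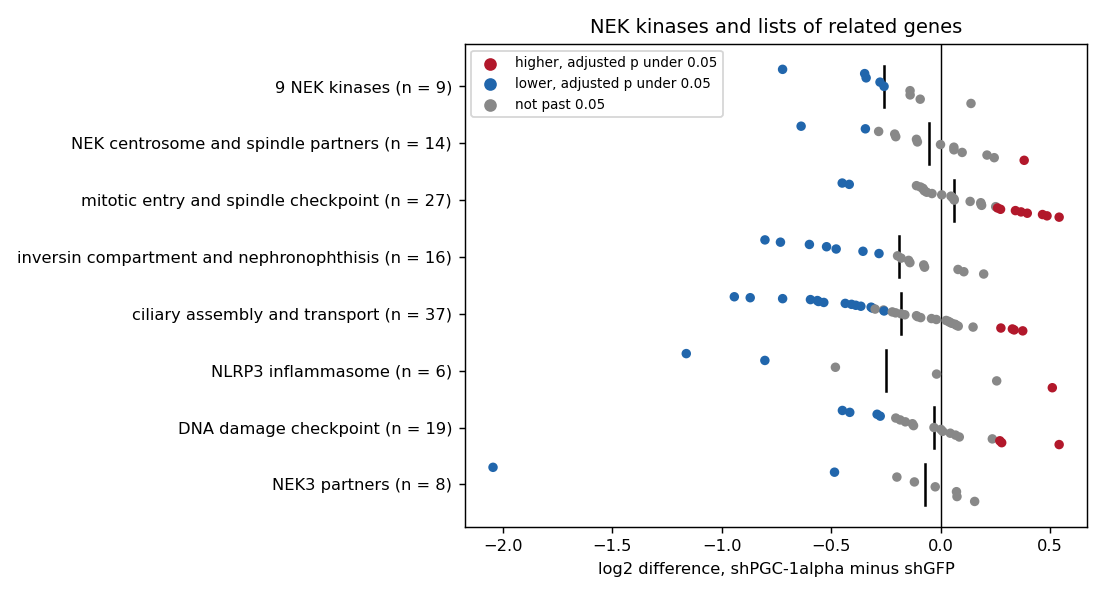
Log2 difference of every measured gene of the 9 NEK kinases and of 7 related lists, with the list median as a black line, genes past the threshold in red (higher) or blue (lower) and others in grey. Most called genes of the 2 ciliary lists lie left of 0, and most called mitotic genes lie right of it.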

How the data were processed

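Biotin-labelled RNA from 3 shPGC-1alpha and 3 shGFP cultures of HK2 cells was hybridised to Affymetrix arrays. The authors deposited log2 values for 53617 probe sets, made with RMA (background correction, quantile normalization and summarisation per probe set) in Affymetrix Expression Console, per the submitters' processing notes; no version is given in the sources used here. Quantile normalization reduces a shift shared by most transcripts. The values were used as deposited.

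A table of the platform's annotation gave 1 gene symbol for 16098 probe sets and none for 37519. All 16098 matched RefSeq GRCh38.p14, and the probe set with the highest mean stood for each of 14884 genes. Groups came from the sample titles, and nothing says whether cultures were transduced separately, so p-values cover only the spread among these arrays, which may be technical. No pair of arrays held the same values (13 to 119 identical probe sets).

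limma 3.58.1 in R 4.3.3 (lmFit, eBayes, no block, no filter) compared the groups, adjusted over all genes. The procedure was tested on simulated data. RMA values carry no depth or detection call, so the number of arrays limits the precision. The members, lists and tests were chosen with earlier results of these data known. Named are all NEK genes, in each list up to 4 called members with the smallest p, and 3 genes most like each called NEK; others were chosen after their values were seen. Promoter sequences came from RefSeq. Alternatives were arrays left out, a replicate block, filters, probe set choices, scalings, variance models and array weights.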

Additional observations from a re-analysis of the deposited data

How the results depend on the processing

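Over 15 alternatives each, NEK9 kept its direction and its call in all, and NEK2, NEK4, NEK7 and NEK8 kept theirs without passing in any. The replicate block, the filter on dim genes, the fit over all probe sets, averaged probe sets and the variance models leave a NEK difference as it is. In those settings a direction could not change, and only the adjusted p could. The 5 called NEK kinases numbered 2 to 4 with 1 array left out, 3 with the replicate block, 3 with arrays centred on their median and 1, NEK9, with the model fitted and adjusted over all probe sets. Over all named genes the replicate block called 2773 and centring 3307, against 3243 in the main fit. The fit over all probe sets lowered that count to 1737 of 14884. It changes both the variance estimate and the number of features adjusted over, and their parts were not tested. Of the genes of ciliary assembly and transport it called 9 lower and 0 higher. Calls among the centrosome and spindle partners numbered 2 to 6 over the alternatives, against 3. Calls were lost in 9 alternatives for NEK10, 8 for NEK6, 4 for NEK3 and 1 for NEK11, and 0 differences changed sign. NEK6 minus NEK7 ranged from -0.18 to -0.08 and NEK8 minus NEK9 from 0.59 to 0.67 with 1 array left out. In the replicate block they stayed at -0.14 and 0.63, as they must with 1 array of each group per replicate.

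Deviations from the group mean correlated at r = 0.117, 0.087 and 0.023 for same-numbered arrays and at -0.123 to 0.057 for the others. No method says that replicate numbers mark a block, so the main fit left a block out. With the replicate block NEK6 and NEK10 had limma adjusted p of 0.077 and 0.053. With 1 probe set per NEK gene, averaging probe sets could not alter their values. With probe sets averaged, the lower genes of ciliary assembly and transport numbered 13, against 14. Those of the DNA damage checkpoint numbered 3, against 4. Background correction could not be varied on RMA values.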
